A study of Mus musculus with 10 samples.

Results

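The regions described here are RBFOX2 clusters in genes with little mRNA, from V6.5 cells, a mouse embryonic stem (ES) cell line. They are iCLIP clusters chosen by the control FPKM of their hosts: each overlapped, by at least 1 base and on either strand, 1 or more loci of an RNA-seq table, all of them with a mean below 1 FPKM over both control hairpins. FPKM counts fragments for the length of a transcript and for all fragments mapped. Of 35639 clusters, 1410 met the rule, or 3.96% (exact binomial 95% interval 3.76% to 4.16%). Another 31095 clusters overlapped at least 1 locus at or above 1 FPKM and are called clusters with an expressed locus. The remaining 3134 lay outside every locus.

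For iCLIP, ES cells were given human RBFOX2 with a FLAG-HA tag, or human RBFOX2 without a tag, under doxycycline at 1 µg/ml for 24 h, after 6 days of hygromycin at 150 µg/ml. Ultraviolet light at 150 mJ/cm2 crosslinked RNA to protein, and the RNA was pulled down by the FLAG and then the HA epitope. The untagged library had 7 PCR cycles beyond the 16 that both libraries were given, and the part of this difference in the untagged coverage, and so in the folds, was not tested. Each cluster belongs to the tagged library and was kept by the authors as enriched over the untagged library. The bound protein is therefore an introduced, induced, tagged human protein, and there was 1 tagged and 1 untagged library, so no value of a cluster has a replicate. For RNA-seq, ES cells carried a lentiviral hairpin against Rbfox2 (shFox2-1 or shFox2-2) or a control hairpin (shLuc against luciferase, shGFP against GFP). They had 3 days of puromycin at 1 µg/ml and then 24 h without it. Each hairpin had 2 poly(A)-selected libraries, pooled in 1 deposited value. Depth is unknown, since neither counts nor library totals come with the values. ES markers were high in all 4 hairpins (Pou5f1 299.7 and 267.6 FPKM in shFox2-1 and shFox2-2 cells, 285.0 and 336.4 FPKM in shLuc and shGFP cells). The 12 ES entries found started at 13.3 FPKM (Klf4 in shFox2-2 cells), apart from a second Sox2 entry. That entry had 1.32 and 0.433 FPKM in shFox2-1 and shFox2-2 cells and 0.512 and 0.630 FPKM in shLuc and shGFP cells. Nanog, also on the list, had no entry. The 11 fibroblast entries found ran from 0 to 4.31 FPKM, with Lum and Fap at 0. Rbfox2, listed as Rbm9, had 8.56 and 7.21 FPKM in shFox2-1 and shFox2-2 cells, against 24.7 and 23.3 FPKM in shLuc and shGFP cells.

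RBFOX2 is an RNA-binding protein that recognises GCAUG and controls alternative splicing, mostly from introns of unspliced transcripts. Its relatives act in neurons and muscle, and many of its known targets are genes for cytoskeletal, synaptic and channel proteins. iCLIP reads RNA that was joined to the protein by light inside the cell, spliced or not, whereas poly(A)-selected RNA-seq reads mainly mature mRNA.

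The hosts were 668 entries of the table in 591 distinct spans, where a span is the genomic stretch the table gives for an entry and several nested entries can share one. They were 4.73% of the 14113 entries below 1 FPKM. Of the 668, 563 could be matched to a current gene symbol, and 530 were protein-coding and 26 long noncoding RNA genes. The host entries had a median control mean of 0.290 FPKM, with quartiles of 0.0758 and 0.640 FPKM. In these bulk samples a transcript at a low level in every cell and one at a higher level in few cells cannot be told apart. The 3 host entries just inside the limit were Bmp7, a secreted growth factor (0.996 FPKM), Abtb2 (0.996 FPKM) and Gm672 (0.992 FPKM). Just outside it were Pde2a, a cyclic nucleotide phosphodiesterase (1.00 FPKM), Efcab2 (1.00 FPKM) and Mpp3 (1.00 FPKM). The limit falls within the spread of single hairpins: Bmp7 had 0.678 and 0.938 FPKM in shFox2-1 and shFox2-2 cells, against 1.27 and 0.720 FPKM in shLuc and shGFP cells.

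The label of little mRNA was in doubt for a few hosts. Ccnd1, the gene for cyclin D1, was listed at 0 FPKM in shFox2-1, at 23.9 FPKM in shFox2-2, and at 0 FPKM in shLuc and shGFP. Oraov1 in the same span was listed at 0, 2.57, 0 and 0 FPKM in that order of hairpins. Ccnd1 had an OK status in all 4 hairpins, and whether such an exact 0 is a failed estimate was not tested. In all, 109 host entries were listed at 0 in both controls, and 4 of them had 1 FPKM or more in a knockdown hairpin. Without the 102 clusters whose loci were all listed at 0 in both controls, the share with no untagged coverage was 60.0% in place of 60.1%, and the median coverage 350 in place of 345.5. Ube2l3, a ubiquitin-conjugating enzyme with 9 clusters, had 0.198 and 0.387 FPKM in shFox2-1 and shFox2-2 cells and 0.419 and 0.123 FPKM in shLuc and shGFP cells, all with a low-data status. The values are below 1 FPKM, but the span held 20.3 clusters per 100 kb, and whether values of this status are too low was not tested. Rbfox2 had the same status in shFox2-2 and shLuc cells. By the gene ID that each cluster carries, 1244 of 1376 clusters with a matched ID named a host entry, and 132 named another gene. For 91 of the 1376 no entry was found for the gene of the ID, so its mRNA level is unknown. For 26 clusters the ID named 1 of 16 genes listed at 1 FPKM or more, among them Galnt2 (5 clusters, control mean 10.2 FPKM), Papola (2 clusters, 20.8 FPKM) and Mcu (1 cluster of coverage 12947, 2.58 FPKM).

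The base sequences of the clusters are not shown, since no genome of their build was used. To show how hosts with little mRNA differ at their starts, RefSeq promoters (GRCm38.p6, 250 bases before to 50 after the start) are given for the 2 hosts with most clusters and for Car5a, whose span alone held clusters on both strands. Capitals mark CG dinucleotides. The Ppp1r12b promoter lies at chr1:134955891-134956190 on the minus strand, that of Hs6st3 at chr14:119138015-119138314 on the plus strand, and that of Car5a at chr8:121944863-121945162 on the minus strand.
Ppp1r12b: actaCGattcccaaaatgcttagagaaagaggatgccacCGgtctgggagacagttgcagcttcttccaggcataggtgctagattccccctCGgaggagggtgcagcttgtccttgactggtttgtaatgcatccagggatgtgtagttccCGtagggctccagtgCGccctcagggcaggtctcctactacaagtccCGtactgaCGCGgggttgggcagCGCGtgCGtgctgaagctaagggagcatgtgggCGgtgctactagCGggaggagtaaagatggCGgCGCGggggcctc
Hs6st3: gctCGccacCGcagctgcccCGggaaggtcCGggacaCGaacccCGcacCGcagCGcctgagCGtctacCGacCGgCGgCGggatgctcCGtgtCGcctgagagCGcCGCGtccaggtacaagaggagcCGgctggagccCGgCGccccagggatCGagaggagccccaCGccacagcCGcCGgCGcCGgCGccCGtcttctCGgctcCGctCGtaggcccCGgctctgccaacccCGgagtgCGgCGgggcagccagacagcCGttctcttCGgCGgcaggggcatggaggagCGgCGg
Car5a: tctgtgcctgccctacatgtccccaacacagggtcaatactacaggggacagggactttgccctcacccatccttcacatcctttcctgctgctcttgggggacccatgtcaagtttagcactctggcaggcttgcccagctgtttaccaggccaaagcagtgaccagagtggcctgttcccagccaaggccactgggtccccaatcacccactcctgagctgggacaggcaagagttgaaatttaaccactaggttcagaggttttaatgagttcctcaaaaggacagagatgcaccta
CG occurred 16 times in the Ppp1r12b promoter, 41 times in that of Hs6st3 and 0 times in that of Car5a. Over all 27025 promoters of the table the median was 7, with quartiles of 3 and 20. Only 400 of the 591 host spans (67.7%) had a promoter in the table, so a comparison of hosts with other genes would be void and none is given.

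The clusters in genes with little mRNA more often had no coverage at all in the untagged library than clusters with an expressed locus. The deposited fold was infinite, meaning no untagged coverage, for 847 of the 1410 (60.1%, exact 95% interval 57.5% to 62.6%). It was infinite for 44.3% of clusters with an expressed locus (43.7% to 44.8%) and 44.4% of clusters outside every locus (42.6% to 46.1%). These intervals, and those of medians below, treat clusters as separate and cover counting error only. Merging overlapping clusters left 1328 regions. Among clusters with a finite fold, the median was 5.56 in genes with little mRNA (order-statistic 95% interval 4.91 to 6.10, n = 563), 3.66 with an expressed locus (3.59 to 3.72, n = 17333) and 3.37 outside every locus (3.22 to 3.53, n = 1743). The finite folds in genes with little mRNA ran from 1.18 to 138.25, with quartiles of 2.73 and 10.08. The fold was below 2 for 82 of them.

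The coverage of the clusters was slightly lower than that of clusters with an expressed locus, and they were wider. Coverage is the authors' value for the tagged library, with its unit not given in the sources used here. Its most common value was 150, and it was a multiple of 25 for 22.4% of the clusters in genes with little mRNA and 16.1% of those with an expressed locus. Its median was 345.5 in genes with little mRNA (327 to 373), 375 with an expressed locus (372 to 379) and 371 outside every locus (356 to 385). The upper quartile was 882 in genes with little mRNA and 844 with an expressed locus, so the lower median did not extend to the upper part of the distribution. The median width was 104.5 bp (100 to 108) in genes with little mRNA, 90 bp with an expressed locus and 90 bp outside. The median of coverage per base was 3.33, 4.05 and 3.90 in the same order. Clusters at least 400 bp wide made up 7.30% in genes with little mRNA (103 clusters, 6.00% to 8.79%), 4.29% with an expressed locus (4.07% to 4.52%) and 3.92% outside. The wide ones had a median coverage of 4880 in genes with little mRNA and 7593.5 with an expressed locus. Of the 1410, 18 were among the top 1% of all clusters by coverage, or 1.28% (0.758% to 2.01%), against 0.994% with an expressed locus. The 18 include overlapping clusters of Ppp1r12b, with coverages up to 29504, so they are not 18 separate sites. The share without Ppp1r12b was not computed.

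Infinite fold depends on coverage, so the shares were also set side by side at like coverage. Up to a coverage of 200, 80.4% of 352 clusters in genes with little mRNA had an infinite fold, against 72.7% with an expressed locus. Between 200 and 400 the shares were 78.4% of 439 clusters and 58.0%. Between 400 and 800 they were 60.3% of 239 and 38.3%. Between 800 and 2000 they were 34.0% of 188 and 18.3%, and above 2000 they were 6.25% of 192 and 2.73%. The share was higher in genes with little mRNA in all 5 ranges. The exact intervals of both groups were apart in the first 4 and overlapped above 2000 (3.27% to 10.7% and 2.23% to 3.30%). No test was run, since clusters of 1 library are not replicates.

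**Figure D1:**
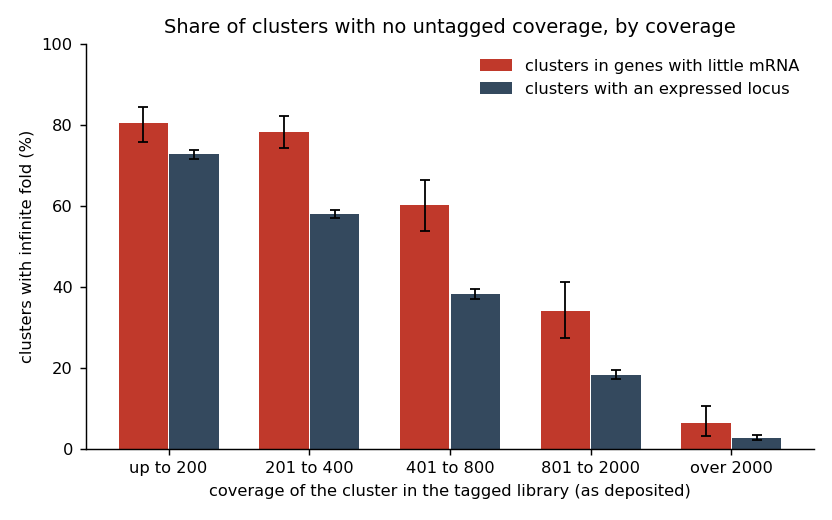
Bars give the percentage of clusters with no untagged coverage (infinite fold) in 5 ranges of deposited coverage, for clusters in genes with little mRNA (left bar) and clusters with an expressed locus (right bar), with exact binomial 95% intervals as error lines. The left bar is taller in each range, from 80.4% against 72.7% at the lowest coverage to 6.25% against 2.73% at the highest.

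The untagged values behind the finite folds piled up at a few steps. Coverage divided by fold gives the untagged value behind a fold, and over all 19639 clusters with a finite fold its most common values were 112 (6581 clusters), 224 (1939) and 336 (856). In genes with little mRNA the untagged value was at that lowest common step for 48.3% of clusters with a finite fold (272 of 563), against 33.0% with an expressed locus. At or below the step, infinite folds included, lay 83.0% of the clusters in genes with little mRNA (81.0% to 85.0%) and 71.0% of those with an expressed locus (70.5% to 71.5%). A fold of such a cluster rests on very little untagged signal. The authors' q-value reached at most 0.0128 in genes with little mRNA and was listed at 0 for 237 clusters, 16.8%, against 11.9% with an expressed locus.

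Within genes with little mRNA the fold and coverage hardly followed the mRNA level. By the control mean of the highest locus a cluster overlapped, the share with an infinite fold was 61.2% below 0.1 FPKM (258 clusters), 63.0% from 0.1 to 0.25 FPKM (243), 57.3% from 0.25 to 0.5 FPKM (295) and 59.8% from 0.5 to 1 FPKM (614). Above the limit it was 52.8% from 1 to 5 FPKM, 45.5% from 5 to 20, 37.2% from 20 to 100 and 34.3% at 100 FPKM or more. The median coverage was 312.5, 350, 357 and 339 in the 4 ranges below 1 FPKM, with overlapping intervals. It was 346, 362, 408 and 452 in the 4 ranges above. The share of spans that held a cluster was 1.47%, 7.03%, 10.3% and 17.5% in the 4 ranges below 1 FPKM. In the 4 ranges above it was 39.9%, 60.6%, 66.0% and 46.8%, so it was higher in each range up to 20 to 100 FPKM and lower again at 100 FPKM or more. Span length, with which this share also varied (below), was not matched between the ranges.

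**Figure D2:**
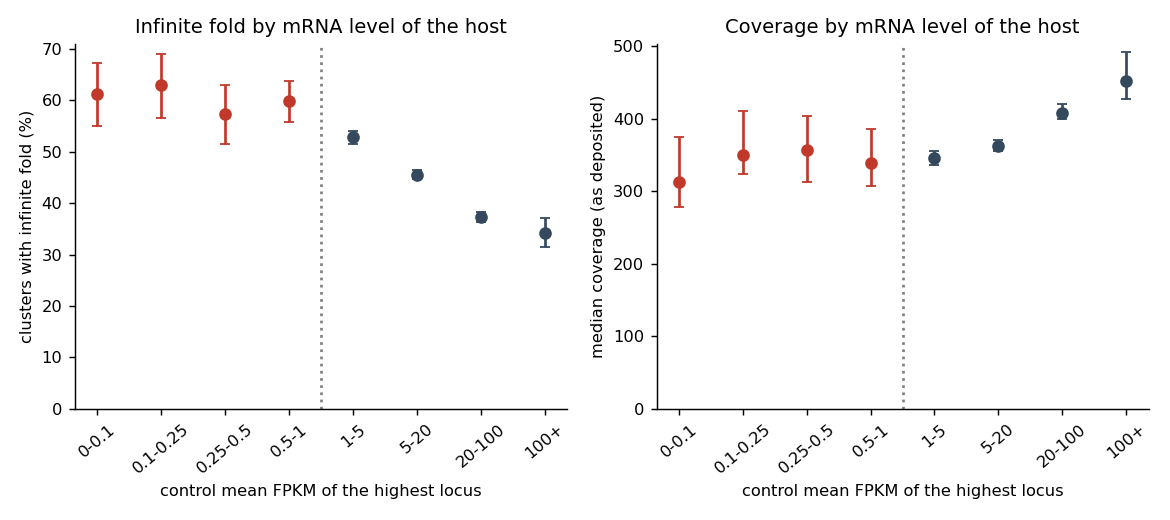
Points give, by the control mean FPKM of the highest locus a cluster overlaps, the percentage of clusters with an infinite fold (left panel) and the median deposited coverage (right panel), with 95% intervals. Red points left of the dotted line are clusters in genes with little mRNA, which lie between 57.3% and 63.0% for infinite fold and between 312.5 and 357 for coverage; dark points are clusters with an expressed locus.

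The hosts were long genes with few clusters. Host spans had a median of 59685 bp (52067 to 65852, n = 591, quartiles 23011 and 175680 bp), running from 312 bp at the histone gene Hist1h4j to 1133525 bp at Ptprt. Expressed spans with a cluster had a median of 33664 bp (32600 to 34783, n = 6547), and spans with little mRNA and no cluster a median of 7176 bp (6858 to 7524, n = 12176). Spans of at least 200 kb made up 21.8% of hosts (129), 5.04% of expressed spans with a cluster and 2.86% of spans with little mRNA and no cluster. A span held 2.39 clusters on average in hosts with little mRNA and 4.75 in expressed hosts. Single clusters were found in 49.9% of hosts with little mRNA (295 spans) and 27.2% of expressed hosts, and 5 or more clusters in 11.5% (68 spans) and 32.2%. Over the summed length of the spans this came to 1.75 clusters per 100 kb in genes with little mRNA and 7.76 in expressed genes. A cluster that also met an expressed locus is not counted here for a span with little mRNA.

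Spans with little mRNA held a cluster less often than expressed spans in every length range. Below 10 kb, 0.867% of spans with little mRNA held a cluster (61 of 7038), against 19.5% of expressed spans. From 10 to 50 kb the shares were 5.27% (205 of 3890) and 63.4%. From 50 to 200 kb they were 14.4% (196 of 1362) and 84.9%, and at 200 kb or more 27.0% (129 of 477) and 88.7%. Among spans with a cluster, the mean number of clusters in these 4 ranges was 1.33, 1.85, 2.48 and 3.60 in genes with little mRNA, and 1.64, 3.18, 6.92 and 14.8 in expressed genes. The longest spans with little mRNA thus held 0.854 clusters per 100 kb and the longest expressed spans 4.24.

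**Figure D3:**
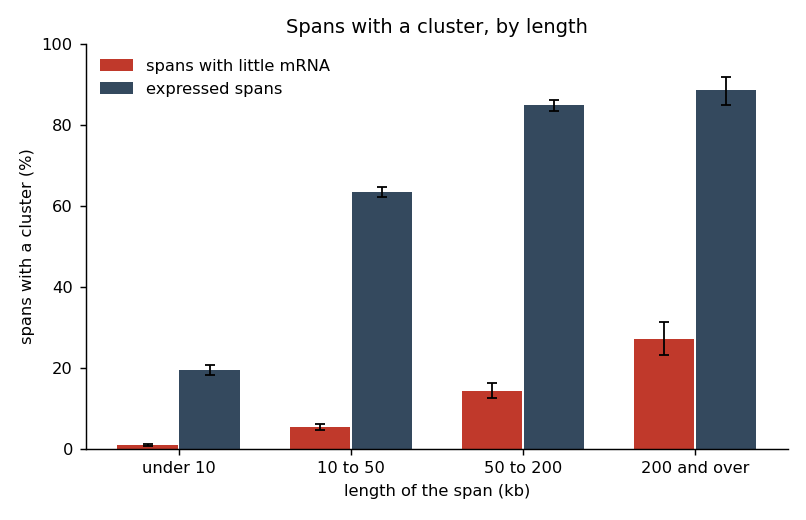
Bars give the percentage of spans that hold a cluster in 4 ranges of span length, for spans with little mRNA (left bar) and expressed spans (right bar), with exact binomial 95% intervals as error lines. Among spans with little mRNA the share runs from 0.867% below 10 kb to 27.0% at 200 kb or more, and among expressed spans from 19.5% to 88.7%.

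The 10 spans with most clusters held 144 of the 1410. Ppp1r12b, a regulatory subunit of the myosin phosphatase of striated muscle, held 30 clusters over 190 kb (mm9 chr1:136662520-136852517). Its mRNA was at 0.955 and 0.839 FPKM in shFox2-1 and shFox2-2 cells and at 0.733 and 0.882 FPKM in shLuc and shGFP cells, values that overlap between knockdown and control. All 30 clusters lay on the minus strand and merged into 10 regions. The largest region was a stack of 21 overlapping clusters over 987 bp (mm9 chr1:136695578-136696564), with coverages from 1339 to 29504 and a median of 13635. Their folds ran from 2.60 to 12.45, so the untagged library also had coverage in the stack. The other 9 clusters had coverages from 172 to 2706. Of the 50 clusters of highest coverage in genes with little mRNA, 14 were in Ppp1r12b. Without Ppp1r12b, the 1380 remaining clusters had a median coverage of 339 and 61.2% had an infinite fold.

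**Figure D4:**
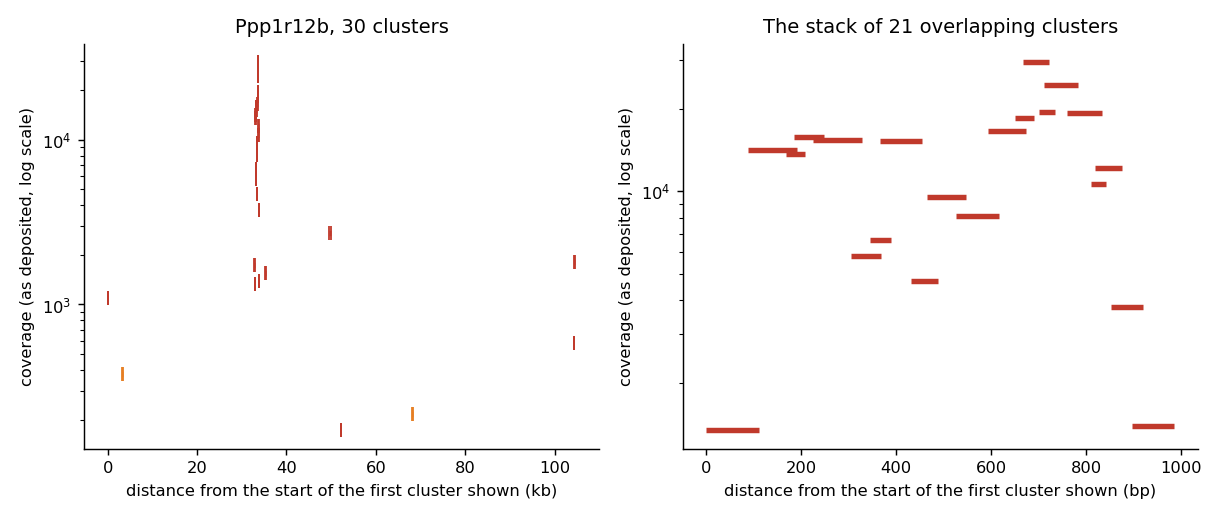
Each bar is 1 of the 30 clusters in Ppp1r12b, drawn at its distance from the first cluster shown (kb on the left, bp on the right) and at its deposited coverage on a log scale; red bars have a finite fold and orange bars an infinite one. The right panel shows the stack of 21 clusters over 987 bp, whose coverage peaks at 29504.

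The next hosts by cluster number were much longer. Hs6st3, a sulfotransferase that modifies heparan sulfate, held 16 clusters over 732 kb (mm9 chr14:119537524-120269037). Its highest entry had 0.172 and 0.0897 FPKM in shFox2-1 and shFox2-2 cells and 0.401 and 0.153 FPKM in shLuc and shGFP cells. Its clusters had coverages from 150 to 14734, and 9 of the 16 had an infinite fold. Cdh4, which encodes R-cadherin, a calcium-dependent adhesion protein, held 15 clusters over 454 kb (mm9 chr2:179177272-179631110). It had 0.582 and 0.694 FPKM in shFox2-1 and shFox2-2 cells and 0.782 and 1.08 FPKM in shLuc and shGFP cells, and both values in knockdown cells were under the lower control. Its clusters reached a coverage of 16400, and 9 had an infinite fold. Rora, a nuclear receptor needed for cerebellar Purkinje cells, held 14 clusters over 725 kb (mm9 chr9:68501609-69226838), none above a coverage of 4127. It had 0.234 and 0.50 FPKM in shFox2-1 and shFox2-2 cells and 0.311 and 0.590 FPKM in shLuc and shGFP cells, so the hairpins overlapped.

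Srcin1, an inhibitor of Src kinase listed as P140, was the shortest of the 10 hosts with most clusters, with 13 clusters in 65.8 kb (mm9 chr11:97370654-97436440), or 19.8 per 100 kb. It had 0.705 and 0.587 FPKM in shFox2-1 and shFox2-2 cells and 0.784 and 0.683 FPKM in shLuc and shGFP cells. Dnah8, a dynein heavy chain of sperm flagella listed as Dnahc8, held 12 clusters over 248 kb, 8 of them with an infinite fold. It had 0.612 and 0.843 FPKM in shFox2-1 and shFox2-2 cells and 0.784 and 0.778 FPKM in shLuc and shGFP cells. Most Dnah8 clusters were narrow with coverages below 500, beside 1 of coverage 41110, the highest of all clusters in genes with little mRNA. The span of Arhgap26 held 12 clusters over 383 kb, 10 with an infinite fold, and none had a coverage above 1125. The nearby span of Fgf1 held 6 more clusters, and Arhgap26 was the only gene named by their IDs. Their coverage reached 2822, and 4 had an infinite fold. Hosts are ranked here by span, not by this ID. Ttc28 and Galnt17 (listed as Wbscr17), the second a glycosyltransferase that starts mucin-type sugar chains, held 11 clusters each over 410 kb and 433 kb. Galnt17 had 0.0628 and 0.152 FPKM in shFox2-1 and shFox2-2 cells and 0.198 and 0.298 FPKM in shLuc and shGFP cells, and its clusters reached a coverage of 9729. Col13a1, a transmembrane collagen, and Dscaml1, a neuronal adhesion protein, held 10 each and tied for the last place.

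**Figure D5:**
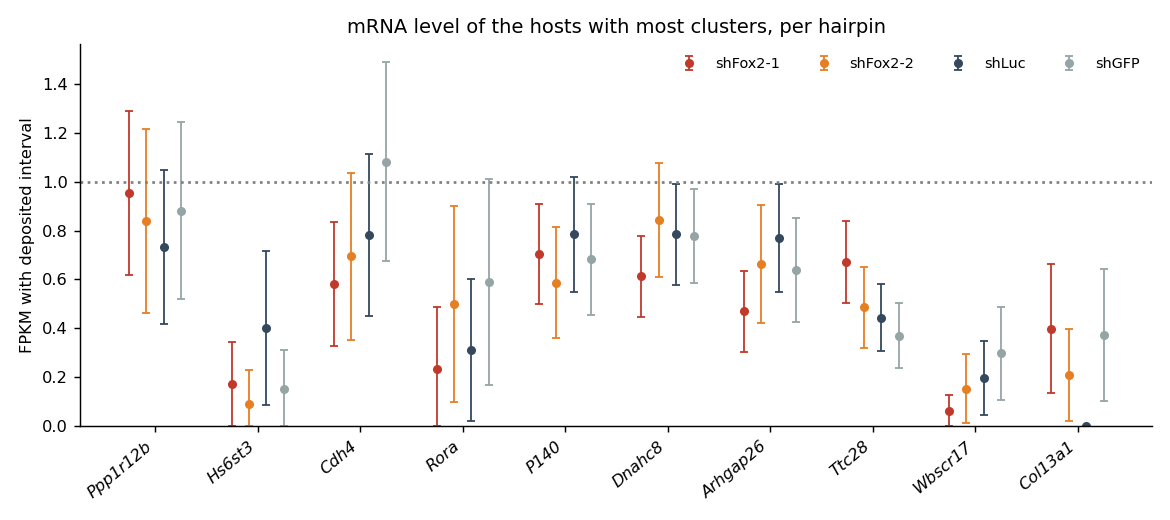
Points give the FPKM of the 10 named hosts with most clusters in shFox2-1, shFox2-2, shLuc and shGFP cells (left to right within a gene), with the deposited bounds as error lines; the dotted line marks 1 FPKM. Ppp1r12b, P140, Dnahc8 and Arhgap26 lie between 0.469 and 0.955 FPKM and Wbscr17 below 0.3 FPKM, and the bounds are wide, as from 0.620 to 1.29 FPKM for Ppp1r12b in shFox2-1 cells.

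The longest hosts held few clusters for their size. Ptprt, a receptor tyrosine phosphatase of neurons, had 1 cluster in 1133525 bp and 0.211 and 0.134 FPKM in shFox2-1 and shFox2-2 cells, against 0.131 and 0.187 FPKM in shLuc and shGFP cells. The span of Asic2 (listed as Accn1), an acid-sensing ion channel, had 9 clusters in 1088232 bp, none above a coverage of 646. The span of Gpc6, a cell-surface heparan sulfate proteoglycan, had 8 clusters in 1054215 bp. That of Lrmda, listed as 1700112E06Rik, had 6 clusters in 1036374 bp, and Pard3b, a polarity protein, had 2 in 998681 bp. Asic2 and Gpc6 came to 0.827 and 0.759 clusters per 100 kb.

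The 10 clusters of highest coverage lay in 9 genes, and each had a finite fold. The Dnah8 cluster of coverage 41110 was 789 bp wide (mm9 chr17:30814140-30814928) with a fold of 11.13. Myo1h, an unconventional myosin, followed with coverage 36164 over 1437 bp and a fold of 5.99. Sec14l4, a lipid-transfer protein of the Sec14 family, had the widest cluster, with coverage 32875 over 1631 bp (mm9 chr11:3944689-3946319) and a fold of 14.0. Fam163b (listed as C630035N08Rik) reached 31765, the highest Ppp1r12b cluster 29504 and Cpeb3, an RNA-binding regulator of translation in neurons, 28438. Cldn14, a tight junction protein of the inner ear and kidney, had a cluster of coverage 27979 and was listed at 0 FPKM in both controls. A second Ppp1r12b cluster had 24445. Disc1, a scaffold protein of neurons and centrosomes, had 23350, and Tdrd9, a helicase of the germline piRNA pathway, 22391. The median coverage of clusters in genes with little mRNA was 345.5, so these 10 lie far out in the tail.

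The highest finite folds were found at low and at high coverage. Ryr1, the calcium release channel of skeletal muscle, had the highest finite fold, 138.25, at a coverage of only 553, with an untagged value of 4. St8sia1, a sialyltransferase that makes ganglioside GD3, had a fold of 105.15 at coverage 1367 with an untagged value of 13.0. Ptpn7, a phosphatase of blood cells, had 63.75 at coverage 255, and its untagged value was again 4. Kif6, a kinesin, had 48.88 at coverage 5474 with an untagged value of 112, the common step. Cdh4 had 43.59 at coverage 9765 with an untagged value of 224. BC048644 (43.56), Tshz1, a zinc finger factor (43.53), 4933427D06Rik (43.5), Ppp1r12b (42.95) and Ak7, an adenylate kinase of cilia (39.18), made up the rest of the 10 highest. Among infinite folds, the highest coverages were 4475 in Adora1, the adenosine A1 receptor, 3250 in Abcc6, a transporter listed at 0 FPKM in both controls, and 2941 in Gnao1, a G protein subunit of neurons.

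Clusters of 1 span lay almost always on 1 strand. The rule ignored strand. Of the 173 host spans with 3 or more clusters, 172 held them on a single strand (99.4%, 96.8% to 100.0%), against 96.3% of 3564 expressed spans (95.6% to 96.9%). These intervals overlap. Expressed spans with a cluster held more clusters (a mean of 4.75 against 2.39), and cluster number was not matched. The exception among the 173 host spans was that shared by Car5a, a mitochondrial carbonic anhydrase, and BC048644, with 6 clusters on the plus and 2 on the minus strand (mm9 chr8:124431733-124468812). A plus-strand cluster at chr8:124441001-124441663 with coverage 11860 there overlapped minus-strand clusters at chr8:124440994-124441304 (6555) and chr8:124441281-124441872 (9693). Of the plus-strand clusters of this span, 4 with infinite folds carried the ID of Galnt2, a gene listed at a control mean of 10.2 FPKM. The highest entry of the span had 0.195 and 0.428 FPKM in shFox2-1 and shFox2-2 cells and 0.140 and 0.146 FPKM in shLuc and shGFP cells.

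Clusters were spread along the spans. Position was read from the 5′ end, with the strand of the cluster taken as that of the transcript, for the 1193 clusters that overlapped 1 entry. The median position was 48.2% of the span (45.0% to 51.5%), against 51.3% for 25241 clusters with an expressed locus. The first 10% of the span held 10.8% of clusters in genes with little mRNA (9.11% to 12.7%) and 9.55% of those with an expressed locus. The last 10% held 10.6% (8.87% to 12.4%) and 15.0% (14.6% to 15.5%). Whether a cluster lies in an exon, an intron or a UTR was not analysed here.

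By role, the hosts included neuronal, muscle and developmental genes, though most members of those lists had no cluster. Of 49 entries below 1 FPKM on a list of ion channels and neurotransmitter receptors, 10 were hosts, with 35 clusters. The first of them were Grik4, a kainate receptor subunit (7 clusters over 424 kb), Scn8a, a neuronal sodium channel (7 over 175 kb), Kcnh1, a potassium channel (5 over 319 kb), and Ryr2, the calcium release channel of the heart (5 over 554 kb). Grik4 had 0.169 and 0.160 FPKM in shFox2-1 and shFox2-2 cells and 0.176 and 0.182 FPKM in shLuc and shGFP cells. Ryr2 was listed at 0 FPKM in all 4 hairpins. Of 47 entries for neuronal adhesion and synapse organisers, 8 were hosts: Ncam1, a cell adhesion molecule, held 8 clusters in 297 kb, and Ptprd, a presynaptic receptor phosphatase, held 2 in 653 kb. Ncam1 had 1.13 and 0.549 FPKM in shFox2-1 and shFox2-2 cells and 0.888 and 0.805 FPKM in shLuc and shGFP cells, and a second entry of its span was at 0 in all 4. Dscam and Cntnap5a, both neuronal surface proteins, held 1 cluster each.

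Of 23 entries for cadherins and protocadherins below 1 FPKM, 2 were hosts, Cdh4 with 15 clusters and Cdh6 with 1. Of 39 lineage transcription factors, 6 were hosts, with 36 clusters: Rora 14, Nfib, a factor of lung and brain development, 9, and Nr3c2, the mineralocorticoid receptor, and Prdm16, a regulator of brown fat and haematopoietic stem cells, 5 each. Nfib had 1.06 and 0.792 FPKM in shFox2-1 and shFox2-2 cells and 0.969 and 0.661 FPKM in shLuc and shGFP cells. Of 8 RNA-binding regulators of neurons and muscle, 3 were hosts: Rbm20, a splicing regulator of heart muscle (9 clusters), Celf2, a splicing regulator listed as Cugbp2 (4), and Cpeb3 (2). Rbm20 had 0.370 and 0.548 FPKM in shFox2-1 and shFox2-2 cells and 0.422 and 0.600 FPKM in shLuc and shGFP cells. Of 25 muscle and cytoskeletal entries, 7 were hosts, among them the kinase gene Prkca with 5 clusters, Ldb3, a protein of the muscle Z-disc, and Pde10a, a phosphodiesterase of the striatum, with 3 each, and Sntg2, a syntrophin, with 2. Of 8 imprinted and other long noncoding RNA entries, 1 was a host (2610035D17Rik, 5 clusters), and of 38 replication-dependent histone entries, 2 (Hist1h3e and Hist1h4j, 1 cluster each). The RNA-seq was poly(A)-selected, and whether its values reflect the level of histone mRNA was not tested, so the label of little mRNA is in doubt for these entries. No host was found among 4 entries for small RNA genes without a poly(A) tail, 9 fibroblast entries, 1 further Rbfox gene and 1 second entry of Sox2. Shares of these lists are set against 4.73% of all entries below 1 FPKM, but the genes of several lists are long, and length was not matched.

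No host passed the test of knockdown against control, and no other entry did, Rbfox2 itself included. Of the 668 host entries, 582 were tested, and the other 86 were at 0 in every hairpin or had a failed status. By limma with Benjamini-Hochberg adjustment over 20281 entries, 0 hosts passed an adjusted p of 0.05 in either direction, and 0% of all entries did. The smallest adjusted limma p was 0.918 for a host and 0.913 over all entries. With 2 hairpins against 2 the test did not call even the knocked-down gene, so it cannot tell whether hosts changed. At an unadjusted limma p below 0.05, 20 hosts were higher (3.44%) and 21 lower (3.61%) in knockdown cells, against 2.3% and 2.17% of all entries. No host had both knockdown intervals above, or both below, both control intervals, against 0.128% and 0.0838% of all entries. The median log2 change was 0.02 for hosts and 0.00 for all entries. The rule used the control values, so these counts are a description. The same holds for entries at 1 FPKM or more, which numbered 64 and 48 hosts in shFox2-1 and shFox2-2 cells and 26 and 23 in shLuc and shGFP cells. Over all entries they numbered 12677 and 12682 in shFox2-1 and shFox2-2 cells and 12740 and 12775 in shLuc and shGFP cells.

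Among the 248 hosts with a mean of at least 0.5 FPKM over the hairpins, Ccnd1 and Oraov1 had the largest differences, and both rested on shFox2-2 alone. Next was 1700019A02Rik, with 1.80 and 0.812 FPKM in shFox2-1 and shFox2-2 cells, against 0.221 and 0.568 FPKM in shLuc and shGFP cells. Mybpc2, a myosin-binding protein of fast muscle, had 1.04 and 0.994 FPKM in knockdown cells, against 0 and 0.579 FPKM in control cells. 2410076I21Rik had 2.13 and 1.48 FPKM in knockdown cells, against 1.04 and 0.514 FPKM in control cells. The adjusted limma p was 0.978 for each of these 3, which were likewise picked for their differences. 1700019A02Rik and Mybpc2 reached a mean of 0.5 FPKM only through the knockdown hairpins.

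On the other side stood Clcf1, a cytokine of the interleukin-6 family, with 0.226 and 0.236 FPKM in shFox2-1 and shFox2-2 cells, against 0.790 and 0.998 FPKM in shLuc and shGFP cells. Its log2 change was -0.62 (SE 0.11), with an unadjusted limma p of 0.00159 and an adjusted p of 0.918. Hist1h4j, a histone H4 gene, had 0.317 and 0.0921 FPKM in knockdown cells, against 1.17 and 0.492 FPKM in control cells. Fkbp7, a chaperone of the endoplasmic reticulum, had 0.295 and 0.549 FPKM in knockdown cells, against 0.774 and 1.06 FPKM in control cells. D11Lgp2e, a helicase of the RNA-sensing family, had 0.524 and 0.315 FPKM in knockdown cells, against 0.772 and 0.990 FPKM in control cells. Chrd, which encodes the BMP antagonist chordin, had 0.350 and 0.507 FPKM in knockdown cells, against 0.775 and 0.916 FPKM in control cells. None of the 5 passed the adjusted threshold. They were picked as the largest differences, from hosts whose control values the rule had used, and each reached a mean of 0.5 FPKM only through the control hairpins, so the gap between the groups is a description.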

How the data were processed

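The deposited cluster list gives, per the file headers, the mm9 position, gene ID and, joined in 1 field, the authors' coverage (tagged library), fold (tagged over untagged) and q-value. The caller and the unit of coverage are not given in the sources used here. Expression was deposited as FPKM with bounds and a status, 1 value per hairpin pooling 2 libraries, per the file headers. TopHat2 2.0, Cufflinks 2.1.1 and mm9 are named in the submitters' processing notes. Depth is unknown.

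Clusters and loci were intersected (1 base, either strand), and hosts were counted as distinct spans. Shares have exact binomial and medians order-statistic 95% intervals. Knockdown (2 hairpins) was set against control (2 hairpins) with limma 3.58.1 in R 4.3.3, with its trend option, on log2(FPKM + 1) of 20281 entries that were above 0 in some hairpin and had no failed status. A fold change on that scale understates the change of low genes, and p-values measure the spread between hairpins. Whether the fit can detect a change in entries below 1 FPKM, as all hosts are by the rule, was not tested.

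Members and gene lists were chosen with earlier results of these data known. Named genes were the 10 spans with most clusters, the 5 longest, hosts of the 10 highest coverages and finite folds (an infinite fold has no rank), up to 4 hosts per list, the 5 largest differences each way, and 3 on each side of the limit. The infinite folds of highest coverage, Dscaml1 (a tie), Dscam, Cntnap5a, Ube2l3, the Car5a and Fgf1 spans and the genes named for a cluster's ID were named after their values were seen.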

Additional observations from a re-analysis of the deposited data

How the results depend on the processing

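Of 124 alternative values, 108 were labelled the same as the values given and 16 as moved. Some of those labelled the same still shifted. Clusters per 100 kb of summed span were 2.30 at a limit of 2 FPKM, against 1.75 in the main setting. They were 1.33 for clusters at or above the median coverage. Mean clusters per span were 2.77 and 1.99 under these settings, against 2.39. With the limit at 0.5 FPKM 796 clusters met the rule, and at 2 FPKM 2833, with a median finite fold of 4.81. Keeping folds of at least 4 gave 70.9% infinite folds and a median finite fold of 8.84. Keeping clusters at or above the median coverage of all clusters left 666, with a median coverage of 969.5, 38.0% infinite folds, a median finite fold of 7.51, a median width of 188 bp and a median host span of 73901.5 bp. Leaving out clusters that overlap another on the same strand, an alternative chosen after seeing the data as were those without Ppp1r12b and without loci at 0, gave a median coverage of 319. With it, and with loci of OK status in both controls, 100% of spans with 3 or more clusters held 1 strand. These changes follow from which clusters each setting keeps. Hosts at an unadjusted limma p below 0.05 numbered 41; leaving out 1 hairpin gave 33 to 83, with 63 without shFox2-1 and 83 without shFox2-2, where the lone hairpin is assumed to vary like the others. Under the alternatives for the knockdown test that kept all 4 hairpins, 0 hosts passed the adjusted limma threshold. Since the main fit called no entry of any kind, this says nothing further on the hosts. No paired analysis was possible because each value pools both libraries of a hairpin. The planned search for GCATG was not run, since no mm9 genome was used. One tagged library, unknown depth, the 7 further PCR cycles of the untagged library and the step of 112 limit the folds.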
